A study of Homo sapiens with 21 samples.

Results

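The genes described here are the replication-dependent histone genes measured in BT474 cells: every entry of the count table whose symbol starts with HIST1H, HIST2H, HIST3H or HIST4H, that is not named as a pseudogene, and that drew at least 50 counts over all 21 libraries. The table listed 69 such symbols among 37355 genes; 8 had pseudogene symbols, 20 others fell under 50 counts, and 41 remained. Of these, 4 encode the linker histone H1, 6 encode H2A, 17 encode H2B, 6 encode H3 and 8 encode H4. By locus, 35 belong to the HIST1 cluster on chromosome 6, 3 to HIST2 and 2 to HIST3 on chromosome 1, and 1 is HIST4H4 on chromosome 12.

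BT474 is an established line of HER2-amplified human breast cancer cells, and RNA sequencing was run on 7 groups of 3 libraries. In a pair of groups, parental cells were kept for 3 days with antibody: trastuzumab, which binds HER2, at 10 µg/mL, or trastuzumab plus pertuzumab, which binds another site of HER2, at 10 µg/mL each. The 4 resistant groups are cell pools derived from BT474: BT-TR1 and BT-TR2 are resistant to trastuzumab, BT-TPR1 and BT-TPR2 to trastuzumab plus pertuzumab, and all 4 had spent 7 days without antibody before harvest. The untreated parental cells are the group against which the others were set. All 7 groups share the BT474 background and a culture in serum; each resistance class is represented by 2 pools, so the pools, not the libraries, are its units. The labels do not say that replicates came from separate cultures, so p-values measure the spread between libraries, which may be technical. The untreated libraries serve all 6 comparisons with them, which are therefore not independent of one another.

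Replication-dependent histone genes supply the core and linker histones that package newly copied DNA, and most of their transcription is tied to S phase. Their typical mRNAs lack a poly(A) tail: the transcript is cut just after a conserved stem-loop, which the stem-loop binding protein SLBP holds, and it is degraded when replication stops. Several of these genes are also known to make longer, polyadenylated transcripts that read past the stem-loop, and libraries that select poly(A) RNA see mainly those. The labels name total RNA as the extracted molecule and do not state whether poly(A) RNA was selected, so how fully each kind of transcript was captured was not tested.

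The stem-loop is printed because it marks where the typical transcript ends. A search for the consensus of the histone stem-loop in the 150 bases after the last sense codon found it in 24 members, starting 26 to 59 bases downstream. It could not be searched in full in 15 members, whose annotation holds 3 bases after the coding sequence in 13, 54 in HIST1H4C and 60 in HIST1H1E, nor in HIST2H2BC, which has no transcript there; HIST1H2BJ had no match. Genome-wide, 35 of 20371 genes with a coding transcript held it there (0.172%), 32 of them with HIST symbols. Sequences are from hg38 with GENCODE 29, 5′ to 3′ as transcribed, with the loop in capitals.
HIST1H2AC, chr6:26124669-26124684, plus strand: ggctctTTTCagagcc
HIST1H2BD, chr6:26158587-26158602, plus strand: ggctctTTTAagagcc
HIST1H3E, chr6:26225596-26225611, plus strand: ggctctTCTCagagcc
HIST1H4H, chr6:26285131-26285146, minus strand: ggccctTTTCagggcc
HIST1H4I, chr6:27139654-27139669, plus strand: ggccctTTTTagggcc
HIST1H2AG, chr6:27133515-27133530, plus strand: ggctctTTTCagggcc
The form of HIST1H2AC was shared by 13 members of the H2A, H2B and H3 families and that of HIST1H2BD by 4 of H2B and H3, and the form of HIST1H4H was found in 4 members, all of H4. Those of HIST1H3E, HIST1H4I and HIST1H2AG were each found in 1 member. In 19 of the 24, the annotated transcript runs more than 100 bases past the stem-loop.

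Library totals ran from 7939270 to 21746391 counts, of which 13.7% to 33.3% were mitochondrial, and 28 to 41 of the 41 members had a count in a given library. The luminal markers KRT8, KRT18, KRT19, EPCAM, GATA3 and ERBB2 were all tested, with summed levels of 6169 to 13700 CPM (counts scaled to the TMM-normalized library size). GATA3 was lower than in untreated cells in all 4 pools (log2 changes of -1.14 for BT-TPR1, -0.91 for BT-TPR2, -1.59 for BT-TR1 and -0.91 for BT-TR2), and ERBB2 was called in none of the 6 comparisons with untreated cells. The other luminal calls in the dual-resistant pools were EPCAM, lower in BT-TPR1 (-0.58), and KRT18, higher in BT-TPR2 (0.38). Of 5 fibroblast markers 1 was tested (COL1A1, not called), and leukocyte markers summed to at most 0.223 CPM. Of 3 endothelium markers, with summed levels of 6.23 to 8.91 CPM in BT-TPR1, 5.45 to 7.39 CPM in BT-TPR2 and 9.515 to 18.4 CPM in untreated cells, CDH5 was higher in both dual-resistant pools (1.80 and 2.43) and VWF lower (-0.90 and -1.21), while PECAM1 was untested and at 0 in all 3 untreated libraries. CDH5 had a mean level of 0.424 CPM in BT-TPR1, 0.676 CPM in BT-TPR2, 2.60 CPM in BT-TR1 and 2.01 CPM in BT-TR2, against 0.121 CPM in untreated cells. The part of these markers in the histone results was not tested. In bulk RNA, a different share of cells in S phase and a different amount of histone RNA per cell cannot be told apart. Of the 41 members, 32 passed the filter on low counts and were tested, with edgeR's quasi-likelihood test and Benjamini-Hochberg adjustment over 17650 genes. A change is termed a call where the adjusted p is under 0.05.

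The summed level of the 41 genes was higher in the dual-resistant pools than in any other group apart from 1 library. It was 303, 257 and 236 CPM in BT-TPR1 and 277, 259 and 254 CPM in BT-TPR2, against 150, 147 and 154 CPM in untreated cells. In BT-TR2 it was 291, 159 and 160 CPM, and in BT-TR1 169, 155 and 153 CPM. Every library of both dual-resistant pools lay above every untreated library, whereas in BT-TR2 replicate 1 stood far above replicates 2 and 3. Trastuzumab alone gave 150, 143 and 147 CPM and trastuzumab plus pertuzumab 137, 147 and 143 CPM, levels that overlapped those of untreated cells. As means with SD over 3 libraries, the level was 265.3 ± 34.1 CPM in BT-TPR1 and 263.5 ± 11.96 CPM in BT-TPR2, 1.76 and 1.75 times the 150.4 ± 3.08 CPM of untreated cells. The mean of BT-TR2 was 203.4 ± 75.9 CPM, and 159.6 CPM without its replicate 1. No test was made of these sums, since the members were chosen with earlier results known.

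**Figure D1:**
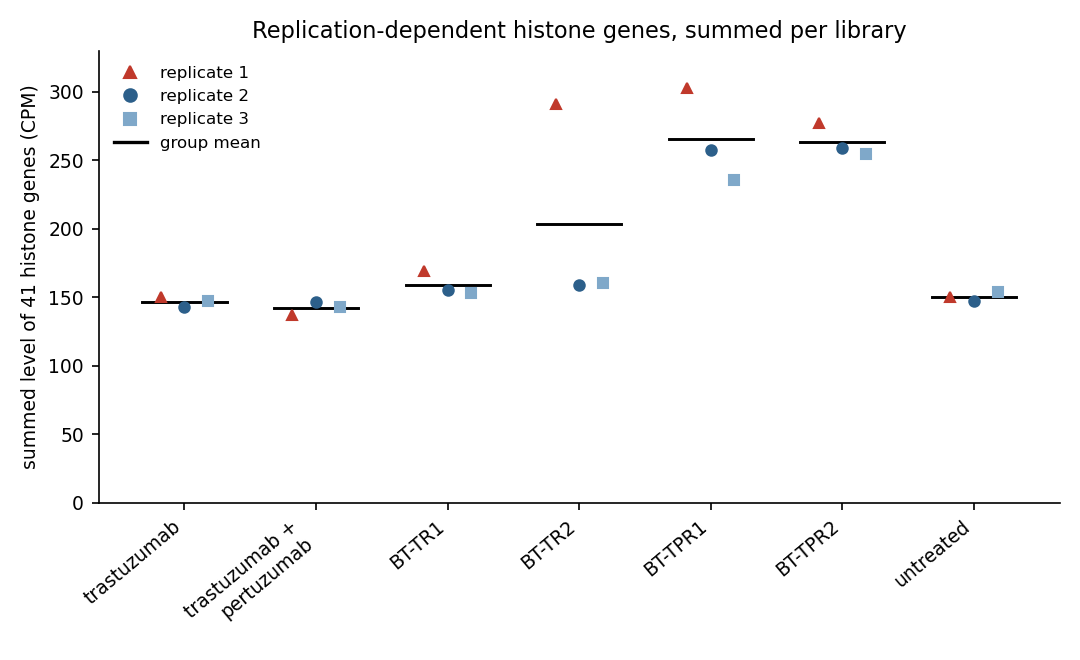
Summed level of the 41 histone genes in CPM (vertical axis, from 0) in each of the 7 groups; points are libraries, marked by replicate, and the line is the group mean. The 6 dual-resistant libraries lie between 236 and 303 CPM and the untreated libraries between 147 and 154 CPM, with BT-TR2 replicate 1 at 291 CPM.

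Levels were uneven within the gene set. Over all 21 libraries, 7 members averaged above 10 CPM, 15 between 1 and 10 CPM and 19 under 1 CPM, and the 10 highest held 80.5% of the summed mean level. In CPM, which counts reads per gene whatever its length, these were HIST1H2AC (29.4), HIST1H2BD (24.9), HIST2H2BE (20.96), HIST1H2BK (16.9), HIST1H4I (15.2), HIST1H4H (13.9), HIST1H1C (10.3), HIST1H3E (9.89), HIST1H2BG (6.71) and HIST1H2AG (4.82). Per kilobase of annotated exon the order changed: HIST1H2BK led with 44.4 CPM per kb, ahead of HIST1H2BD with 28.6, HIST1H2AC with 17.7 and HIST1H1C with 16.1. For HIST1H2BK and HIST1H1C the annotation holds the coding sequence alone (381 and 642 bases), so their per-length levels rest on a shorter model than those of the others. In pairwise comparison, coding sequences were 83.1% to 87.3% identical within H3, 79.6% to 89.0% within H4, 83.3% to 92.8% within H2A and 84.7% to 93.9% within H2B, so the split of reads among close copies is uncertain; 4 members (HIST1H2BD, HIST1H2BE, HIST1H2BN and HIST2H2BF) also overlap another annotated gene, and strandedness is not given in the sources used here.

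Before the comparisons, the libraries were examined by how far the annotation extends. GENCODE 29 gives 21 members more than 200 bases after the coding sequence (264 to 3578 bases, termed long 3′ ends here) and 19 members at most 129 bases (short 3′ ends, 13 of them with the stop codon alone); HIST2H2BC has no transcript there. The long group held 81.7% of the summed mean level. Of the 20 long members with a stem-loop, 15 carry a poly(A) signal (AATAAA or ATTAAA) after it, as do 0 of the 4 short members with a stem-loop. Only annotated bases were searched, and these short members have at most 86 after the stem-loop, so this contrast follows from the split. The split was made after the data had been seen.

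The 17 short members other than HIST1H1C and HIST1H2BK varied widely between replicates of a group. They summed to 50.6 CPM in replicate 1 of BT-TR2, against 4.32 and 4.55 CPM in its replicates 2 and 3. In BT-TPR1 they summed to 21.9, 4.34 and 3.84 CPM and in BT-TPR2 to 10.5, 5.54 and 4.95 CPM. In BT-TR1 they summed to 6.60, 2.35 and 1.85 CPM, and in untreated cells to 5.38, 4.45 and 2.59 CPM. Replicate 1 was thus the highest library of each of these groups, and it was also highest with trastuzumab (4.99, 2.44 and 1.88 CPM) and with trastuzumab plus pertuzumab (6.32, 1.98 and 1.61 CPM). The ratio of replicate 1 to the mean of replicates 2 and 3 was 11.4 in BT-TR2 and 5.35 in BT-TPR1, against 1.53 in untreated cells. For the 21 long members the same ratio was 1.504 in BT-TR2, and 0.894 to 1.10 in the other groups. By member, 16 of the 19 short and 8 of the 21 long genes reached their highest level of all libraries in BT-TR2 replicate 1, whereas 3 short and 13 long genes reached theirs in a dual-resistant library.

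**Figure D2:**
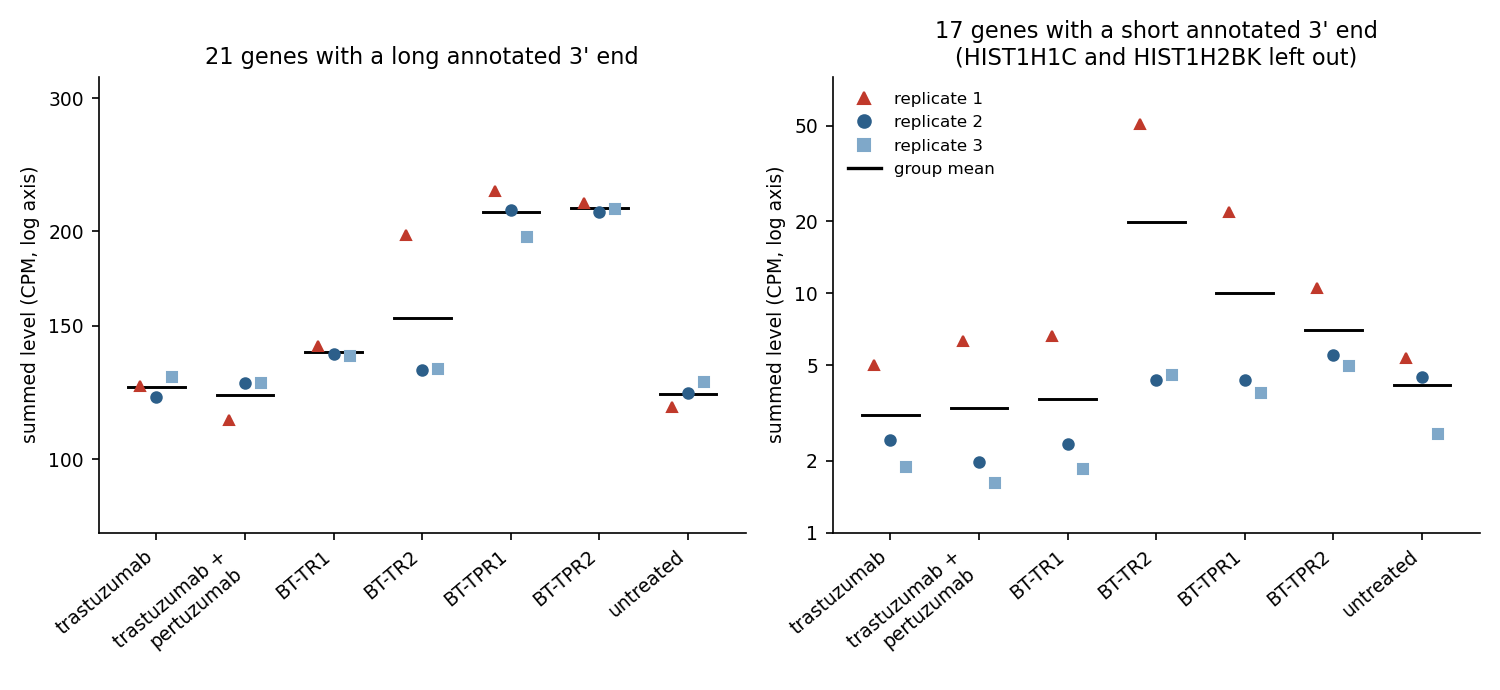
Summed level in CPM, on a log axis, of members with long annotated 3′ ends and of the short-ended members without HIST1H1C and HIST1H2BK, per library; markers show the replicate and lines the group mean. The short-ended genes are highest in replicate 1 of every group (50.6 CPM in BT-TR2), while the long-ended genes of the dual-resistant pools lie at 197 to 226 CPM in all 3 replicates.

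GC content moved with the same libraries. The short members have 49.7% to 61.2% GC (median 59.1%) and the long members 39.5% to 57.7% (median 46.8%). Across all tested genes with a GC value, the correlation of a gene's GC content with its deviation from its group mean was 0.313 to 0.627 in the 7 replicate 1 libraries and -0.537 to 0.0828 in the other 14; genes are not independent, and no p is given. Replicate 1 held the highest mitochondrial share of its group in 5 of 7 groups, but not in BT-TR1 or BT-TPR1. The part of GC content, RNA selection or number of S phase cells in the replicate 1 levels was not tested, and for the comparisons with untreated cells the counts of called members are given below for replicates 2 and 3 alone as well.

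Both dual-resistant pools had a higher summed level of these genes in CPM than untreated cells, and each of the 5 families had at least 1 called member in each pool. How far tailless histone mRNA is part of this level was not tested. The summed level was 2.60 (BT-TPR1) and 2.56 (BT-TPR2) times the untreated one for H1, 1.89 and 1.76 times for H2A, 1.72 and 1.77 times for H2B, 1.73 and 1.61 times for H3, and 1.55 and 1.54 times for H4. In BT-TPR1, 11 of the 32 tested members were higher and 0 lower, where 12.9% of all tested genes were higher and 14.4% lower. In BT-TPR2, 14 were higher and 0 lower, where 15.6% of all tested genes were higher and 16.0% lower. The median change over the 32 members was 0.73 on the log2 scale in BT-TPR1 and 0.78 in BT-TPR2, beside -0.00274 and -0.00976 over all tested genes, and 31 and 32 members had a positive fold change. Short members such as HIST1H3B and HIST1H4A reached 10 counts only in replicate 1 of BT-TR2, BT-TPR1 and BT-TPR2. The filter thus kept them through libraries of resistant pools, and their positive sign is no separate result. Over the 21 long members the median change was 0.73 in BT-TPR1 and 0.80 in BT-TPR2. With replicates 2 and 3 alone it was 0.59 and 0.67 over these long members. Fitted on replicates 2 and 3 alone, 26 members were tested: 13 were higher in BT-TPR1, where 17.4% of all tested genes were higher, and 16 in BT-TPR2, where 21.6% were; 0 were lower in either. Of the calls, 10 in BT-TPR1 and 13 in BT-TPR2 were of long members and 1 in each of a short one, HIST1H1C. Replicate numbers paired the libraries in these comparisons, and with the replicate as a block BT-TPR1 had 21 calls, where 47.4% of all tested genes were called. The count of BT-TPR2 was 9 without untreated replicate 2. In replicates 2 and 3 alone the changes of HIST1H1C were 1.04 in BT-TPR1 and 1.24 in BT-TPR2, those of HIST1H2AC 1.11 and 0.97, those of HIST2H2BE 0.67 and 1.21, and those of HIST1H4I 0.56 and 0.82, all called.

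**Figure D3:**
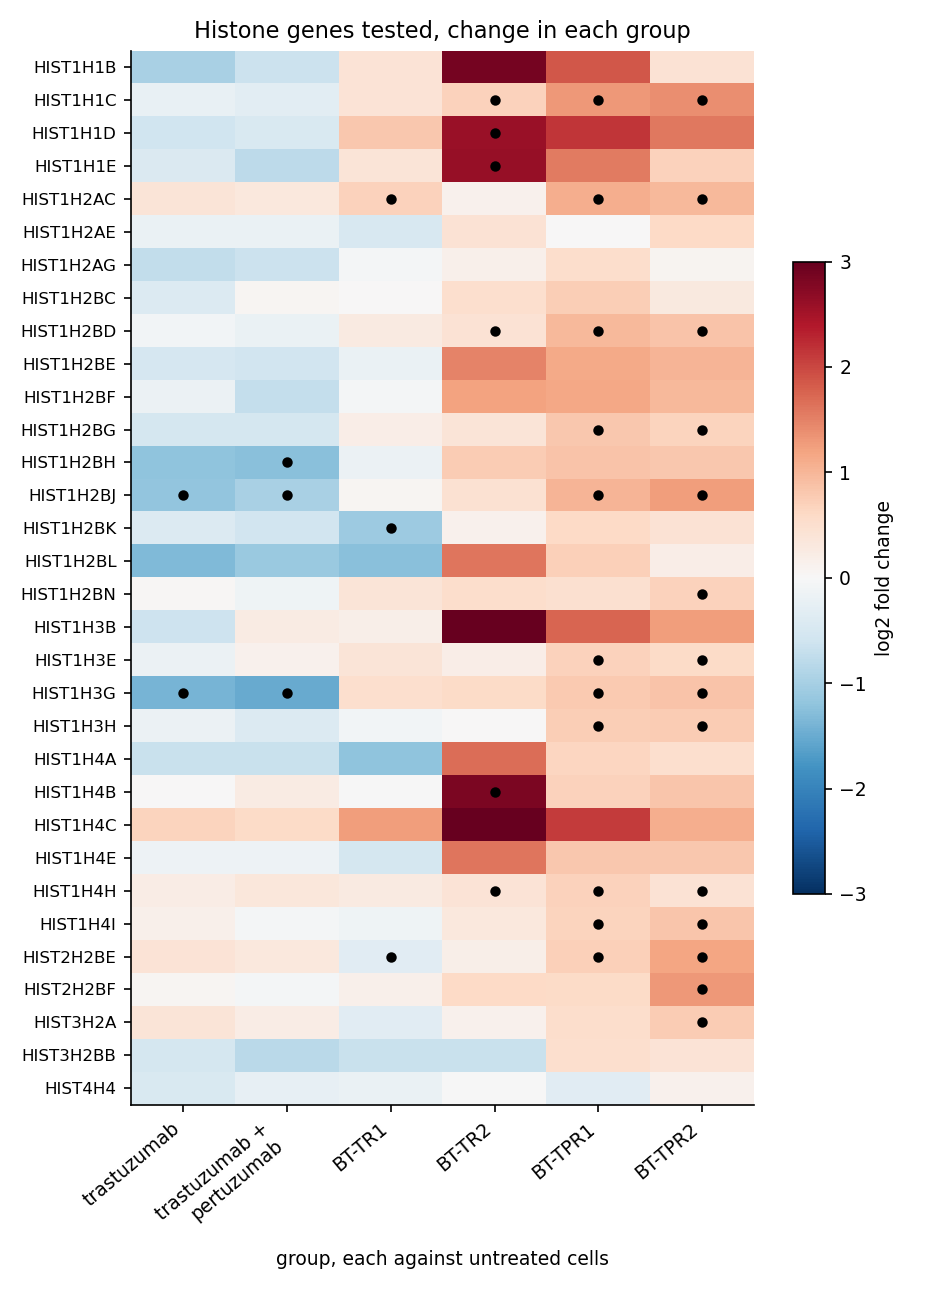
Log2 fold change of each tested histone gene (down the page, by symbol) in each of the 6 groups against untreated cells (across); colour gives the size and direction up to 3, beyond which it no longer deepens, and dots mark calls. Dots mark 11 genes in BT-TPR1 and 14 in BT-TPR2, all higher, against 2 and 3, all lower, in the antibody-treated groups. Of all tested genes, 12.9% and 15.6% were higher in these pools, and 3.78% and 6.02% lower in the antibody-treated groups.

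Linker histone H1 closes the nucleosome and compacts the fibre, and HIST1H1C encodes the variant H1.2. HIST1H1C had 17.9, 17.2 and 14.8 CPM in BT-TPR1 and 16.9, 20.3 and 16.3 CPM in BT-TPR2, against 4.56, 7.34 and 8.30 CPM in untreated cells. The groups did not overlap, and the change was 1.30 ± 0.20 (log2 fold change ± SE, adjusted p = 0.000105) in BT-TPR1 and 1.401 ± 0.20 (adjusted p = 3.54e-05) in BT-TPR2. The other H1 genes, HIST1H1B, HIST1H1D and HIST1H1E, are short-ended, averaged under 1 CPM over all 21 libraries and were not called in either pool. HIST1H1D had 1.897, 0.503 and 0.769 CPM in BT-TPR1 and 0.873, 0.651 and 0.627 CPM in BT-TPR2, against 0.220, 0.310 and 0.181 CPM in untreated cells, without overlap (2.15 ± 0.84, adjusted p = 0.0643, and 1.57 ± 0.88, adjusted p = 0.183). Its change with replicates 2 and 3 alone was 1.38 in BT-TPR1 (adjusted p = 0.0581) and 1.386 in BT-TPR2 (adjusted p = 0.0413). HIST1H1E reached 2.76 CPM in BT-TPR1 replicate 1, but 0.378 and 0.256 CPM in its replicates 2 and 3, which overlap the untreated 0.385, 0.569 and 0.227 CPM.

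Among the H2A genes, which form the acidic face of the nucleosome with H2B, HIST1H2AC carried the change. It had 36.9, 47.1 and 42.7 CPM in BT-TPR1 and 34.9, 39.4 and 42.7 CPM in BT-TPR2, against 17.7, 19.9 and 22.1 CPM in untreated cells. Every dual-resistant library lay above the highest untreated one, with changes of 1.08 ± 0.12 (adjusted p = 2.37e-06) in BT-TPR1 and 0.97 ± 0.12 (adjusted p = 6.67e-06) in BT-TPR2. HIST3H2A, of the HIST3 cluster, had 7.85, 5.35 and 4.58 CPM in BT-TPR2 against 3.74, 3.26 and 3.45 CPM in untreated cells and was called there (0.77 ± 0.25, adjusted p = 0.027). HIST1H2AG had 8.16, 7.30 and 5.90 CPM in BT-TPR1 and 5.41, 5.54 and 4.83 CPM in BT-TPR2, against 4.395, 5.22 and 5.26 CPM in untreated cells, and did not pass the test in either pool (adjusted p = 0.109 and 0.82).

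H2B gave 4 of 13 tested members called in BT-TPR1 and 6 in BT-TPR2. HIST1H2BD had 40.4, 37.7 and 33.5 CPM in BT-TPR1 and 34.3, 36.0 and 33.4 CPM in BT-TPR2, against 19.3, 18.4 and 19.5 CPM in untreated cells. The untreated libraries were tightly grouped and far below both pools, and the changes were 0.97 ± 0.14 (adjusted p = 5e-05) and 0.86 ± 0.14 (adjusted p = 0.000126). HIST2H2BE, the H2B gene of the HIST2 cluster, had 28.5, 24.5 and 23.6 CPM in BT-TPR1 and 35.7, 33.8 and 36.8 CPM in BT-TPR2, against 16.4, 14.5 and 16.1 CPM in untreated cells. The 3 groups were separate from one another, with changes from untreated cells of 0.71 ± 0.12 (adjusted p = 0.000324) in BT-TPR1 and 1.18 ± 0.12 (adjusted p = 8.33e-07) in BT-TPR2. HIST1H2BJ rose by 1.02 ± 0.27 (adjusted p = 0.00941) and 1.25 ± 0.27 (adjusted p = 0.00167), and HIST1H2BG by 0.80 ± 0.25 (adjusted p = 0.0216) and 0.67 ± 0.25 (adjusted p = 0.0463). The H2B calls made in BT-TPR2 and not in BT-TPR1 were HIST2H2BF (1.30 ± 0.44, adjusted p = 0.029) and HIST1H2BN (0.69 ± 0.22, adjusted p = 0.0228). HIST1H2BK showed the replicate 1 pattern instead: it had 36.3, 21.8 and 20.6 CPM in BT-TPR1 and 31.1, 20.6 and 18.6 CPM in BT-TPR2, against 22.9, 13.0 and 16.2 CPM in untreated cells. The ranges overlapped and neither change passed the test (0.60 ± 0.32, adjusted p = 0.17, and 0.43 ± 0.32, adjusted p = 0.314).

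H3 and H4 form the tetramer at the centre of the nucleosome, and the HIST1H3 genes encode the replication-coupled variant H3.1. HIST1H3E had 13.5, 13.5 and 12.4 CPM in BT-TPR1 and 12.4, 11.6 and 12.3 CPM in BT-TPR2, against 6.10, 9.57 and 8.62 CPM in untreated cells. All dual-resistant libraries were higher, with changes of 0.69 ± 0.15 (adjusted p = 0.00272) and 0.58 ± 0.15 (adjusted p = 0.00838). HIST1H3G and HIST1H3H were called in both pools as well: HIST1H3G by 0.78 in BT-TPR1 and 0.87 in BT-TPR2, and HIST1H3H by 0.73 and 0.75. HIST1H3B, short-ended, was not called.

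Among the H4 genes, HIST1H4I had 21.3, 18.9 and 18.8 CPM in BT-TPR1 and 21.001, 22.5 and 22.6 CPM in BT-TPR2, against 11.2, 14.0 and 11.8 CPM in untreated cells. Its changes were 0.68 ± 0.12 (adjusted p = 0.000467) and 0.84 ± 0.12 (adjusted p = 3.92e-05), without overlap. HIST1H4H had 19.4, 18.2 and 15.5 CPM in BT-TPR1 and 15.009, 15.1 and 13.8 CPM in BT-TPR2, against 10.1, 10.8 and 11.8 CPM in untreated cells. It rose by 0.70 ± 0.14 (adjusted p = 0.00138) in BT-TPR1 and by 0.42 ± 0.14 (adjusted p = 0.0298) in BT-TPR2, also without overlap, though the BT-TPR2 call was lost in 7 of 17 alternative settings. HIST4H4, the lone member on chromosome 12 and long-ended, had 2.64, 2.33 and 2.56 CPM in BT-TPR1 against 3.30, 3.57 and 2.72 CPM in untreated cells, a change of -0.34 that did not pass the test (adjusted p = 0.339).

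**Figure D4:**
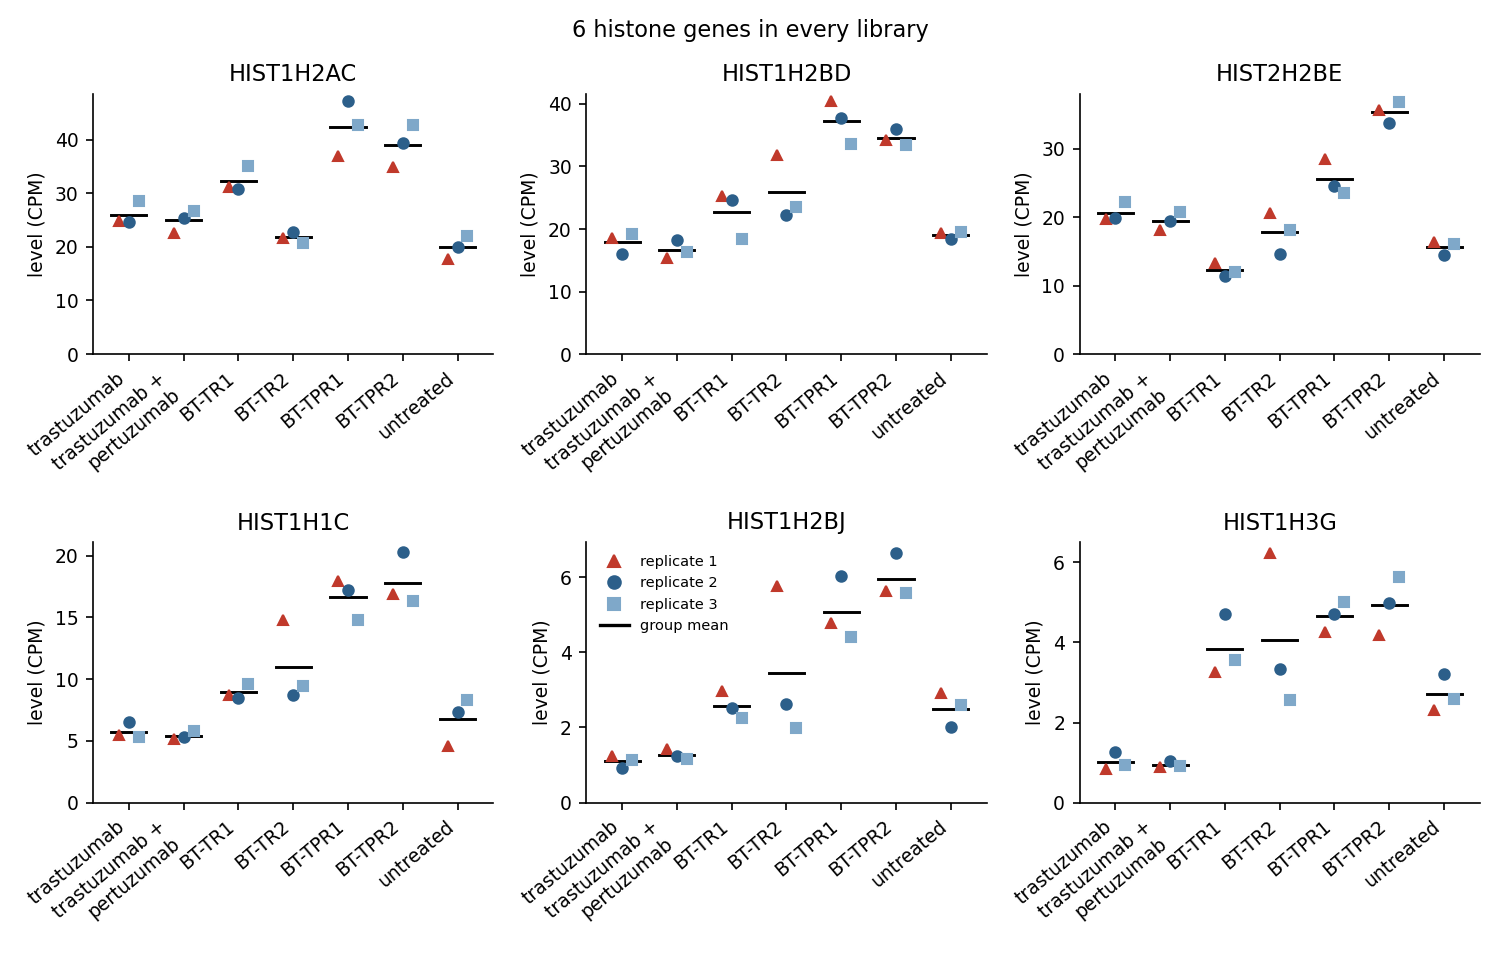
Level in CPM (vertical axes, from 0) of 6 histone genes in all 21 libraries; points are libraries marked by replicate and lines are group means. In the panel of HIST1H2AC the dual-resistant libraries lie at 34.9 to 47.1 CPM, against 17.7 to 22.1 CPM in untreated cells.

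Many H2A and H2B genes lie head to head and share the stretch between their starts. The promoter window, the 250 bases before the RefSeq start, was available for 38 members and was searched on both strands. The octamer ATTTGCAT, the motif of POU2F1 in H2B promoters, was present in 16 of 38 windows (42.1%): in 12 of 16 H2B, 4 of 6 H2A and 0 of the H1, H3 and H4 windows, and in 1.63% of 35116 promoters. The CCAAT box, the motif of NF-Y, was found in 86.8% of member windows and 32.0% of all promoters, and the TATA box (TATAAA) in 63.2% and 10.7%. The stretches of 2 pairs are printed as examples in which a partner was called in the dual-resistant pools and the other was not; HIST1H2BG, called in both, and HIST1H2AE, called in neither, are another such pair. They are the plus strand of RefSeq GRCh38.p14, with all octamers, CCAAT boxes and TATA boxes in capitals on either strand.
HIST1H2BC and HIST1H2AC, chr6:26123927-26124171: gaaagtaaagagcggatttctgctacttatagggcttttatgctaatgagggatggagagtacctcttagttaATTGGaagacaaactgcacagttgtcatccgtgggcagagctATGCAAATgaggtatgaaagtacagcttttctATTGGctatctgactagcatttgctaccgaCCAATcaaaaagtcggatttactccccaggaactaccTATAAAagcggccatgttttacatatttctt
HIST1H2BJ and HIST1H2AG, chr6:27132796-27133042: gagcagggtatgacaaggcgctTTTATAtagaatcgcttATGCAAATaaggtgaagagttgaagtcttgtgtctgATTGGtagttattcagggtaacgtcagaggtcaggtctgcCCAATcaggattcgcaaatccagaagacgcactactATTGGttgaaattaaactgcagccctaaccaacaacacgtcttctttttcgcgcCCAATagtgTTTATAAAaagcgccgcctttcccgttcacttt
The HIST1H2BC and HIST1H2AC stretch of 245 bases holds 1 octamer, 3 CCAAT boxes and 1 TATA box, and the HIST1H2BJ and HIST1H2AG stretch of 247 bases 1 octamer, 4 CCAAT boxes and 3 TATA boxes, of which 2 overlap on opposite strands near the HIST1H2AG start. On the HIST1H2AC side the change in BT-TPR1 was 1.08 and called, and on the HIST1H2BC side 0.73 ± 0.31 and not called (adjusted p = 0.0873). HIST1H2BC had 3.51, 2.14 and 1.79 CPM in BT-TPR1 against 1.21, 1.55 and 1.72 CPM in untreated cells. In the other pair HIST1H2BJ was called and HIST1H2AG was not. The difference between partners was not tested, and a motif match describes these letters only.

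The trastuzumab-resistant pools showed fewer calls, and these partly rested on single libraries. In BT-TR1, 1 of 32 tested members was higher and 2 were lower than in untreated cells, where 21.3% of all tested genes were higher and 22.3% lower. HIST1H2AC had 31.2, 30.7 and 35.1 CPM in BT-TR1, against 17.7, 19.9 and 22.1 CPM in untreated cells, a rise of 0.70 ± 0.12 (adjusted p = 0.000237) without overlap. HIST2H2BE had 13.4, 11.4 and 12.01 CPM against 16.4, 14.5 and 16.1 CPM in untreated cells, a fall by 0.35 ± 0.13 on the log2 scale (adjusted p = 0.0324) that 7 of 17 alternative settings lost. HIST1H2BK had 12.5, 6.18 and 5.02 CPM in BT-TR1 against 22.9, 13.0 and 16.2 CPM in untreated cells, and fell by 1.10 ± 0.34 (adjusted p = 0.0141). With a correction for GC content its change was -0.38 (adjusted p = 0.0798). The count of called members was 1 without untreated replicate 1 and 1 without BT-TR1 replicate 2. Replicates 2 and 3 alone gave 1 higher and 2 lower of 26 tested members, without the share of all tested genes in that fit to set beside them.

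In BT-TR2, 6 of 32 tested members were higher than in untreated cells and 0 lower, where 12.7% of all tested genes were higher and 12.1% lower, and all 6 calls were lost without BT-TR2 replicate 1. The largest were of short-ended genes of low level: HIST1H4B (2.83), HIST1H1E (2.61) and HIST1H1D (2.59). HIST1H1E had 6.06, 0.669 and 0.513 CPM in BT-TR2 against 0.385, 0.569 and 0.227 CPM in untreated cells, and HIST1H4B had 3.36, 0.566 and 0.192 CPM against 0.330, 0.103 and 0.136 CPM. In both genes replicate 1 of BT-TR2 stands apart and another BT-TR2 library overlaps the untreated range. The other calls were HIST1H1C (0.70 ± 0.20, adjusted p = 0.0163), HIST1H2BD (0.44 ± 0.14, adjusted p = 0.0257) and HIST1H4H (0.40 ± 0.14, adjusted p = 0.0482). HIST1H1C had 14.8, 8.75 and 9.43 CPM in BT-TR2 against 4.56, 7.34 and 8.30 CPM in untreated cells, higher in all 3 libraries. With replicates 2 and 3 alone, 0 of the tested members were called. The replicate block, which paired these libraries, gave 18 calls, where 45.8% of all tested genes were called; without BT-TR2 replicate 2 or 3 there were 16 and 15, and without untreated replicate 1, 2 or 3 there were 3, 2 and 2.

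Set against each other, the trastuzumab-resistant pools differed in 4 members: 3 were higher in BT-TR2 than in BT-TR1 and 1 lower, where 9.64% of all tested genes were higher and 8.09% lower. HIST1H2AC had 21.7, 22.8 and 20.8 CPM in BT-TR2 against 31.2, 30.7 and 35.1 CPM in BT-TR1, a fall by 0.57 ± 0.12 on the log2 scale (adjusted p = 0.00667). Its BT-TR2 libraries all lay below those of BT-TR1, within or near the untreated range of 17.7 to 22.1 CPM. HIST2H2BE had 20.6, 14.7 and 18.1 CPM in BT-TR2 against 13.4, 11.4 and 12.01 CPM in BT-TR1 (0.53 ± 0.13, adjusted p = 0.0114), and HIST1H4I had 16.8, 14.7 and 14.6 CPM against 11.6, 10.3 and 11.9 CPM (0.45 ± 0.13, adjusted p = 0.0232). HIST1H2BK had 27.7, 14.2 and 14.7 CPM in BT-TR2 against 12.5, 6.18 and 5.02 CPM in BT-TR1 (1.22 ± 0.34, adjusted p = 0.0225). None of these 4 overlapped between the pools, but they were picked by a test of the same libraries, so this is no separate result. The count was 1 without BT-TR2 replicate 1, BT-TR1 replicate 2 or BT-TR1 replicate 3, and 10 and 9 without BT-TR2 replicate 2 or 3.

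After 3 days of antibody, few members passed the test, and those that did were lower. With trastuzumab 0 of 32 tested members were higher and 2 lower than in untreated cells, where 3.71% of all tested genes were higher and 3.78% lower. With trastuzumab plus pertuzumab 0 were higher and 3 lower, where 6.39% were higher and 6.02% lower. HIST1H3G had 0.841, 1.27 and 0.942 CPM with trastuzumab and 0.879, 1.04 and 0.925 CPM with both antibodies, against 2.31, 3.21 and 2.59 CPM in untreated cells. All 6 treated libraries lay below the lowest untreated one; the gene fell by 1.396 ± 0.29 (adjusted p = 0.00504) and 1.502 ± 0.29 (adjusted p = 0.00187), and both calls held in all 17 alternative settings. HIST1H2BJ had 1.23, 0.928 and 1.13 CPM with trastuzumab and 1.43, 1.24 and 1.17 CPM with both antibodies, against 2.91, 2.02 and 2.59 CPM in untreated cells. It fell by 1.19 ± 0.31 (adjusted p = 0.0239) and 0.97 ± 0.30 (adjusted p = 0.0412), again without overlap. HIST1H2BH had 1.10, 1.19 and 0.925 CPM with both antibodies, against 2.25, 3.10 and 2.36 CPM in untreated cells (-1.26 ± 0.39, adjusted p = 0.0404). With trastuzumab alone it had 1.402, 1.08 and 0.895 CPM and missed the threshold (-1.20 ± 0.39, adjusted p = 0.0679).

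None of the 10 most abundant members was called after antibody. HIST1H2AC had 24.7, 24.6 and 28.5 CPM with trastuzumab and 22.6, 25.4 and 26.7 CPM with both antibodies, above the untreated 17.7, 19.9 and 22.1 CPM in every library, but it was not called (0.38, adjusted p = 0.0587, and 0.32, adjusted p = 0.0835). The median change over the 32 members was -0.32 with trastuzumab and -0.28 with both antibodies, beside -0.016 and -0.0135 over all tested genes, and 23 of 32 had a negative fold change in each. The untreated libraries are shared, so these figures are not independent. The block by replicate number, which paired the trastuzumab and untreated libraries, gave 2 higher and 4 lower members for trastuzumab, where 26.2% of all tested genes were called. With replicates 2 and 3 alone 1 of 26 tested members was higher and 4 lower with trastuzumab, and 2 higher and 5 lower with both antibodies. The share of all tested genes called in those fits is not given here, so these counts are not read as particular to histone genes. Leaving out untreated replicate 1 or 3, or replicate 2 or 3 of the treated group, left 1 call in either comparison. Between both antibodies and trastuzumab alone, edgeR called 0 of 32 members, DESeq2 called 0, and 0 had an unadjusted p under 0.05, where 0.487% of all tested genes were higher and 0.380% lower.

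BT-TPR2 differed from BT-TPR1 in 1 member, which was higher, and in 0 that were lower, where 1.64% of all tested genes were higher and 1.81% lower. HIST2H2BE had 35.7, 33.8 and 36.8 CPM in BT-TPR2 against 28.5, 24.5 and 23.6 CPM in BT-TPR1 (0.47 ± 0.12, adjusted p = 0.0334), with no overlap. The call was lost in 8 alternative settings, among them leaving out BT-TPR1 replicate 2 or 3 or any library of BT-TPR2, which each left 0 calls.

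A comparison of the 2 dual-resistant pools with the 2 trastuzumab-resistant pools, added after the data had been seen, called 11 of 32 tested members higher and 0 lower, where 8.45% of all tested genes were higher and 11.3% lower. The count was 18 without BT-TR2 replicate 1. HIST2H2BE was 1.03 ± 0.09 higher (adjusted p = 8.22e-08): its lowest, median and highest levels over 6 libraries were 23.6, 31.1 and 36.8 CPM in the dual-resistant pools, against 11.4, 14.01 and 20.6 CPM in the trastuzumab-resistant pools, without overlap. HIST3H2BB, which shares a promoter stretch with HIST3H2A, was higher by 1.12 ± 0.25 (adjusted p = 0.00319): its lowest, median and highest levels were 1.32, 1.74 and 2.56 CPM in the dual-resistant pools, against 0.360, 0.963 and 1.15 CPM in the trastuzumab-resistant pools, also without overlap. HIST1H2BK was higher by 1.00 ± 0.23 (adjusted p = 0.00436), HIST1H2BJ by 0.87 ± 0.20 (adjusted p = 0.00346), HIST1H1C by 0.80 ± 0.14 (adjusted p = 0.000438), HIST1H4I by 0.66 ± 0.09 (adjusted p = 1.77e-05) and HIST1H2AC by 0.61 ± 0.08 (adjusted p = 2.85e-05). HIST1H4I did not overlap: its lowest dual-resistant library had 18.8 CPM and its highest trastuzumab-resistant library 16.8 CPM. HIST1H2BK (18.6 and 27.7 CPM) and HIST1H2BJ (4.42 and 5.76 CPM) overlapped by the same measure. So did HIST1H1C (14.80 and 14.81 CPM) and HIST1H2AC (34.9 and 35.1 CPM), by less. HIST1H2BK averaged 7.91 CPM in BT-TR1 and 18.9 CPM in BT-TR2. The 6 libraries of each class come from 2 pools, so the test measures spread within these pools and not between independently derived ones.

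Genes that act in S phase were read beside the histone genes. Of 25 S phase genes (replication licensing, fork and nucleotide synthesis genes), 0 were higher and 7 lower in BT-TPR1 and 0 higher and 9 lower in BT-TPR2 than in untreated cells, with median changes of -0.24 and -0.27. In BT-TR1 15 were lower and 0 higher, in BT-TR2 6 lower and 0 higher, with trastuzumab 5 lower and with both antibodies 4 lower, and 0 higher in either. The lower share of all tested genes was 14.4% in BT-TPR1, 16.0% in BT-TPR2, 22.3% in BT-TR1 and 12.1% in BT-TR2. It was 3.78% with trastuzumab and 6.02% with both antibodies. PCNA, the sliding clamp of the fork, was called in none of the 6 comparisons, with changes of -0.15 to 0.03. UHRF1, which takes part in the copying of DNA methylation behind the fork, was lower in all 6: by 0.83 ± 0.23 in BT-TPR1 and by 1.34 ± 0.23 in BT-TPR2. In BT-TR1, POLD1, the catalytic subunit of polymerase delta, fell by 1.88, and CDT1, a licensing factor, by 1.71. In BT-TR2, 11 were higher and 0 lower than in BT-TR1, where 9.64% of all tested genes were higher and 8.09% lower. In the dual-resistant pools 5 were higher and 1 lower than in the trastuzumab-resistant pools, where 8.45% were higher and 11.3% lower. With replicates 2 and 3 alone 1 was higher and 11 lower in BT-TPR1, 10 were lower in BT-TPR2, 16 were lower in BT-TR1 and 10 in the BT-TR2 pool, 8 with trastuzumab and 11 with both antibodies, and 0 were higher in these 5. The lower share of all tested genes in those fits is not given here. Whether the histone genes and the S phase genes differ in their changes was not tested.

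**Figure D5:**
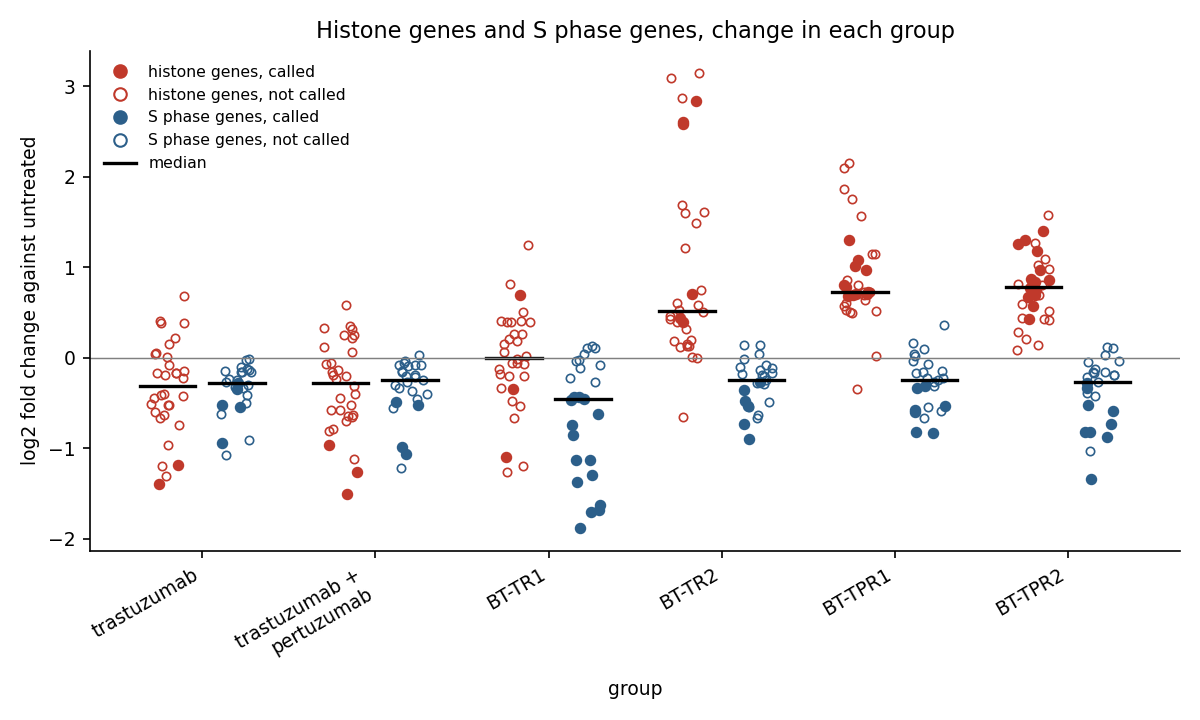
Log2 fold change against untreated cells (vertical axis) of the tested histone genes and of 25 S phase genes in each of the 6 other groups; filled points are called and open points are not. In both dual-resistant pools the called histone genes lie above 0 (11 and 14) and the called S phase genes below 0 (7 and 9). Of all tested genes, 12.9% and 15.6% were higher and 14.4% and 16.0% lower in BT-TPR1 and BT-TPR2.

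Of 20 factors of histone gene expression, 19 were tested. Of these, 2 were higher and 1 lower in BT-TPR1, and 2 higher and 3 lower in BT-TPR2. Among all tested genes the higher share was 12.9% for BT-TPR1 and 15.6% for BT-TPR2. The lower share was 14.4% for the former pool and 16.0% for the latter. SLBP was not called in any group, with changes of -0.01 to 0.16, nor was NPAT, the coactivator at the histone locus body (-0.27 to 0.15), nor CASP8AP2, another protein of that body (-0.57 to -0.18). ZNF473, the zinc finger protein ZFP100 that links SLBP to the processing machinery, was higher in both dual-resistant pools (0.37 and 0.52), and LSM1, of the decay machinery, was higher in BT-TPR1 (0.52) and BT-TR2 (0.54). UPF1, the helicase that takes part in histone mRNA decay, was lower in BT-TPR2 (-0.76) and BT-TR1 (-1.16). CCNE2, which encodes cyclin E2, was lower in BT-TPR1, BT-TPR2 and BT-TR2 (-0.52, -0.54 and -0.60). In BT-TR1 2 of the 19 were higher and 2 lower, in BT-TR2 1 and 1, and after either antibody treatment 0 and 0. Of all tested genes, 21.3% were higher and 22.3% lower in BT-TR1, and 12.7% and 12.1% in BT-TR2. Replicates 2 and 3 alone gave 3 higher and 2 lower in BT-TPR1, and 3 higher and 4 lower in BT-TPR2, without a lower share of all tested genes to set beside them.

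Of 14 histone chaperones 13 were tested, and more calls were lower than higher in every group but BT-TR1. CHAF1A, the large subunit of the assembly factor CAF-1, was lower in all 6 groups, by 0.48 in BT-TR2 to 0.84 in BT-TR1. HJURP, the chaperone of CENPA, fell by 0.62 with trastuzumab and by 0.71 with both antibodies. In all, 0 were higher and 3 lower in each of BT-TPR1, BT-TR2 and the antibody groups, 1 higher and 2 lower in BT-TPR2, and 4 higher and 3 lower in BT-TR1. Of all tested genes, 14.4% were lower in BT-TPR1, 16.0% in BT-TPR2, 22.3% in BT-TR1 and 12.1% in BT-TR2. With trastuzumab 3.78% were lower and with both antibodies 6.02%. In BT-TR1 21.3% of all tested genes were higher. Replicates 2 and 3 alone gave BT-TPR1 1 higher and 3 lower and BT-TPR2 3 higher and 3 lower. Among 11 histone genes outside the replication-dependent set, 3 were higher and 1 lower in BT-TPR1 and 4 higher and 1 lower in BT-TPR2, where 12.9% and 15.6% of all tested genes were higher. Of these 11 genes, 2 were higher and 2 lower with replicates 2 and 3 alone in BT-TPR1 and 5 higher and 2 lower in BT-TPR2. For replicates 2 and 3 alone the lower share of all tested genes is not given for either list. H3F3B, which encodes the variant H3.3, had 282, 307 and 272 CPM in BT-TPR1 and 289, 332 and 337 CPM in BT-TPR2, against 206, 157 and 192 CPM in untreated cells (0.63 and 0.79). CENPA, the centromeric H3 variant, was lower with trastuzumab (-0.76) and both antibodies (-0.63) and higher in all 4 resistant pools (0.45 to 0.73). H2AFX, the variant phosphorylated at DNA breaks, was lower in BT-TR1 (-1.70) and BT-TR2 (-0.87).

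The 7 members listed as known to make polyadenylated transcripts (HIST1H1C, HIST1H2AC, HIST1H2BC, HIST1H2BD, HIST1H2BK, HIST1H4H and HIST2H2BE) gave 5 higher and 0 lower in each dual-resistant pool, the exceptions being HIST1H2BC and HIST1H2BK. Of the other 25 tested members, 6 were higher in BT-TPR1 and 9 in BT-TPR2, and of all tested genes 12.9% and 15.6%. All of the 7 but HIST1H2BC are among the 10 most abundant members, and calls come more readily at higher counts. Whether the 7 differ from the other members was not tested. With replicates 2 and 3 alone 6 of the 7 were higher in each pool, where 17.4% and 21.6% of all tested genes were. The 9 members that did not pass the filter on low counts were HIST1H2AB, HIST1H2AI, HIST1H2BI, HIST1H2BM, HIST1H2BO, HIST1H3C, HIST1H3F, HIST1H4D and HIST2H2BC, each with a mean of at most 0.423 CPM. Some of these did separate from untreated cells: HIST1H2AI had 0.575, 0.503 and 0.449 CPM in BT-TPR1 and 0.407, 0.465 and 0.313 CPM in BT-TPR2, against 0.220, 0.103 and 0.0907 CPM in untreated cells. Without the filter, 4 of the 9 were called higher in BT-TPR1, where 12.9% of 37355 genes were called: HIST1H2AI (1.86, adjusted p = 0.0226), HIST1H3C (2.51, adjusted p = 0.000144), HIST1H3F (1.76, adjusted p = 0.0387) and HIST1H4D (1.79, adjusted p = 0.0125). In HIST1H3C, HIST1H3F and HIST1H4D replicate 1 of BT-TPR1 stood apart (1.72, 1.32 and 1.49 CPM), and the other two libraries lay at or under 0.3204 CPM. In BT-TPR2 0 of the 9 were called in that fit. In BT-TR2 it called HIST1H2AB, HIST1H2BI, HIST1H2BM, HIST1H3C, HIST1H3F and HIST1H4D higher, where 12.1% of 37355 genes were called. In each of these genes replicate 1 of BT-TR2 stood apart, as in HIST1H4D with 67, 5 and 2 counts. The calls are thus not particular to a dual-resistant pool. HIST2H2BC, kept by its symbol, is listed by RefSeq as a transcribed pseudogene.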

How the data were processed

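Raw read counts per gene for 21 libraries were deposited by the authors; per the submitters' processing notes the tools were Bowtie2, featureCounts and DESeq2 and the build hg38, with no versions. The authors also deposited log2-like values (variance-stabilized counts, as the table is named, with DESeq2 per the submitters' processing notes), used only in an alternative. Poly(A) selection, strandedness and annotation release are not given in the sources used here.

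Tests used edgeR 4.0.16 in R 4.3.3: filterByExpr by group (minimum count 10, minimum total 15) kept 17650 genes, libraries were scaled by TMM, and 1 quasi-likelihood fit of all 21 libraries with a term per group (14 residual degrees of freedom) gave every comparison, with Benjamini-Hochberg adjustment over those genes. Intervals are standard errors of log2 fold changes or standard deviations of CPM. The procedure was tested on simulated data. GENCODE 29 (hg38) supplied gene models and stem-loops and placed 36530 of the genes; RefSeq GRCh38.p14 supplied promoters.

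The members and lists were chosen with earlier results of these data known. Named are the 10 most abundant members, in each comparison up to 4 called members with the largest rise and fall, members that separate pools of a class, up to 4 called genes of each list, and SLBP, NPAT, CASP8AP2 and PCNA; further members shown for their pattern (HIST1H2BC, HIST1H3B, HIST1H3H, HIST1H2BN, HIST1H2AE, HIST1H2AI, HIST1H3C, HIST1H3F, HIST1H4D, HIST3H2A, HIST4H4) were chosen after their values were seen, and not every list gene that the rule names is given.

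The comparisons were repeated without a filter, with a strict one (at least 1 CPM in 3 libraries), with RLE, library size alone, DESeq2 1.42.0, limma 3.58.1 on the deposited log2-like values, only the groups compared, a replicate block, replicates 2 and 3 alone, a GC correction (spline, 5 degrees of freedom, 17554 genes), this correction with the block, and leaving out each library. Comparing the dual-resistant with the trastuzumab-resistant pools, the split by annotated 3′ end, leaving libraries out of summed levels and counting gene lists in replicates 2 and 3 alone were chosen after seeing the data. The correlation of same-numbered libraries' deviations from their group means was over 0.1 for every replicate number in 7 of 9 comparisons of groups, so the numbers pair those libraries; the lowest was -0.0106 for trastuzumab plus pertuzumab against untreated cells and 0.0732 for BT-TR2 against BT-TR1.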

Additional observations from a re-analysis of the deposited data

Results flagged for a closer look

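The trastuzumab-resistant pools differed from each other in 4 members by a direct test in edgeR with Benjamini-Hochberg adjustment, on the log2 scale of BT-TR2 over BT-TR1: HIST1H2AC by -0.57, HIST1H2BK by 1.22, HIST1H4I by 0.45 and HIST2H2BE by 0.53. Of all tested genes, 9.64% were higher and 8.09% lower in that comparison. The dual-resistant pools differed in HIST2H2BE, which was 0.47 higher in BT-TPR2 than in BT-TPR1. There 1.64% of all tested genes were higher and 1.81% lower. Between the 2 dual-resistant and the 2 trastuzumab-resistant pools, 11 members differed, where 8.45% of all tested genes were higher and 11.3% lower. Histone entries of the table that the rule leaves out, pseudogenes or genes under 50 counts, summed to a mean of 1.951 CPM in BT-TPR1. Its libraries had 2.93, 1.51 and 1.41 CPM, against 1.21, 0.931 and 0.771 CPM in untreated cells. BT-TR2 had 5.52, 0.618 and 1.09 CPM and BT-TPR2 1.86, 0.791 and 0.877 CPM. Replicate 1 was the highest library in each of these groups. These sums were not tested. No test of single outlying libraries was run, since every group holds 3 libraries.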

How the results depend on the processing

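Over the 55 calls of members, 995 alternative values were computed; 857 stayed past the threshold, 138 did not, 0 reversed, and 27 calls held throughout. Called members numbered 2 for trastuzumab against untreated cells, and 4 without a filter, 6 with DESeq2, 6 with the replicate block, 4 with the GC correction, 5 from replicates 2 and 3 alone and 7 with GC correction and block; leaving out libraries gave 1 to 2. Trastuzumab plus pertuzumab had 3, and 8 with the block, where 32.6% of all tested genes were called. Replicate numbers did not pair these libraries. The count was 7 with replicates 2 and 3 alone, 7 with GC correction and block, and 1 to 2 with libraries left out. BT-TR1 had 3, and 1 to 4 with libraries left out. BT-TR2 had 6, and 19 without a filter, 2 with the strict filter, 2 with limma, 0 from only the groups compared, 18 with the block, 0 with replicates 2 and 3 alone, 17 with GC correction and block, and 0 to 16 with libraries left out. BT-TPR1 had 11, and 25 without a filter, 21 with the block, 21 with GC correction and block, and 8 to 12 with libraries left out. BT-TPR2 had 14, and 9 to 12 with libraries left out. BT-TR2 against BT-TR1 had 4, and 17 with the block, where 42.8% of all tested genes were called. Replicate numbers did not pair these libraries either. The count was 21 without a filter, 1 from only the groups compared, 16 with GC correction and block, and 1 to 10 with libraries left out. BT-TPR2 against BT-TPR1 had 1, and 0 by library size alone, 0 from only the groups compared, and 0 to 1 with libraries left out. The dual-resistant against the trastuzumab-resistant pools had 11, and 10 to 18 with libraries left out. Summed levels by library size alone were 141.6 CPM with trastuzumab and 145.6 CPM in untreated cells. The cause of these changes was not tested, apart from the fewer libraries or genes that some settings hold by construction. The share of all tested genes called is not given for every setting. Counts without it are not read as particular to histone genes.

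The replicate block moved no other count of calls by over 1.5 times. Depth limits the low members: 19 averaged under 1 CPM, and 9 were left out by the filter on low counts and tested only without it.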
